A study of Mus musculus with 16 samples.

Results

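The Hox genes encode homeodomain transcription factors that give cells their position along the head-to-tail axis. The members described here are the 33 genes whose platform symbol is Hox, a cluster letter and a number, each measured by 1 probe set, out of 19505 named genes and 22206 tested probe sets. They were measured on 16 arrays of BU.MPT cells, a mouse proximal tubular line, in 4 groups of 4 samples. H/R+B12 cells spent 3 h at about 1% oxygen with neither glucose nor serum and 1 h back in normal culture, with 0.3 µM cyanocobalamin, a form of vitamin B12. H/R cells went through the same hypoxia and reperfusion without B12. Control+B12 cells stayed in normal culture (21% oxygen, 10% serum, 4.5 g/L glucose) with 0.3 µM cyanocobalamin, and control cells stayed there without it. All 4 groups were grown at 39 °C without interferon gamma, and 700 pg of RNA was the labelled input of every sample. Separate cultures are not stated for the replicates, so a p-value here speaks for the spread among these arrays, which may be technical, and the number of arrays limits the precision.

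In mammals the Hox genes lie in 4 clusters, A to D, on separate chromosomes. Within a cluster the genes carry paralog group numbers from 1 to 13, and genes with low numbers are used nearer the head and earlier in the embryo than genes with high numbers, an order called colinearity. Adult cells often keep part of the pattern of their origin. The kidney comes from the intermediate mesoderm of the trunk, and in the mouse the group 11 genes act together in forming it. Hox proteins bind DNA with partners of the PBC and MEIS classes. Polycomb proteins keep silent Hox genes closed, and MLL proteins keep active ones open.

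The cells had most of the listed marks of a kidney epithelium but few of the proximal tubule. Of 8 kidney epithelium markers 7 were above background in at least 1 group, Cdh16 at a mean log2 signal of 14.74 in control among them. Epcam was not above background in any group, and Krt19 was in H/R+B12 and H/R only. Of 10 proximal tubule markers 3 were above background (Aqp1, Slc4a4 and Mme), and the defining transport and receptor genes Lrp2, Cubn and Slc34a1 were not. Markers of the distal nephron (0 of 9) and of leukocytes (0 of 4) were not above background, while 2 of 8 fibroblast markers were, Col1a1 and Foxd1. So were 3 of 4 podocyte markers (Nphs1, Podxl and Synpo) and 2 of 5 endothelial markers (Cdh5 and Flt1), in at least 1 group. Array medians over all tested probe sets lay between 5.215 and 5.375 on the log2 scale. Fewer cells using a gene and less RNA of it per cell cannot be told apart in these samples.

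Most of the Hox genes were above background in this line by the threshold used here. The others, called silent below, belonged to group 1 or to groups 10 to 13. A gene was counted as above background in a group when its log2 signal on all 4 arrays exceeded the 95th percentile of that array's 1449 probe sets for chemosensory receptors, which kidney cells mostly do not use. That threshold ran from 4.37 to 4.74 over the arrays. By this measure 24 of 33 Hox genes were above background in at least 1 group, where 54.4% of all named genes were. In all 4 groups it was 22 of 33, where 50.4% of named genes were, and the other 2, Hoxc4 and Hoxc5, passed in control only. All 12 genes of groups 4 to 8 were among the 24, against 4 of 6 genes of groups 1 to 3 and 8 of 15 genes of groups 9 to 13. With the 95th percentile of the negative control features as the threshold (10.06 to 10.56) the count was 9, namely Hoxa10, Hoxb2, Hoxb6, Hoxb7, Hoxb8, Hoxb9, Hoxc6, Hoxd8 and Hoxd10.

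In cluster A, on chromosome 6, 6 of 8 genes were above background, from Hoxa2 to Hoxa10, and Hoxa11 and Hoxa13 were not. Cluster B, on chromosome 11, had 7 of 9, an unbroken run of measured genes from Hoxb2 to Hoxb9, with Hoxb1 and Hoxb13 silent. Cluster C, on chromosome 15, had 6 of 9. Its genes Hoxc10, Hoxc11 and Hoxc12 were at background, while Hoxc13, which is known for its part in hair and nails, was above it. In cluster D, on chromosome 2, 5 of 7 were above background, and Hoxd12 was silent between Hoxd11 and Hoxd13. Of the 3 group 11 genes only Hoxd11 passed, with Hoxa11 and Hoxc11 at background in every group. The 9 silent genes had log2 signals of 2.03 to 4.79 over all 16 arrays. The highest of these readings was Hoxb13 on control replicate 3, where the threshold was 4.4. Hoxb13 read 3.7, 4.4, 4.79 and 3.91 in control, so that 1 array exceeded its threshold.

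**Figure D1:**
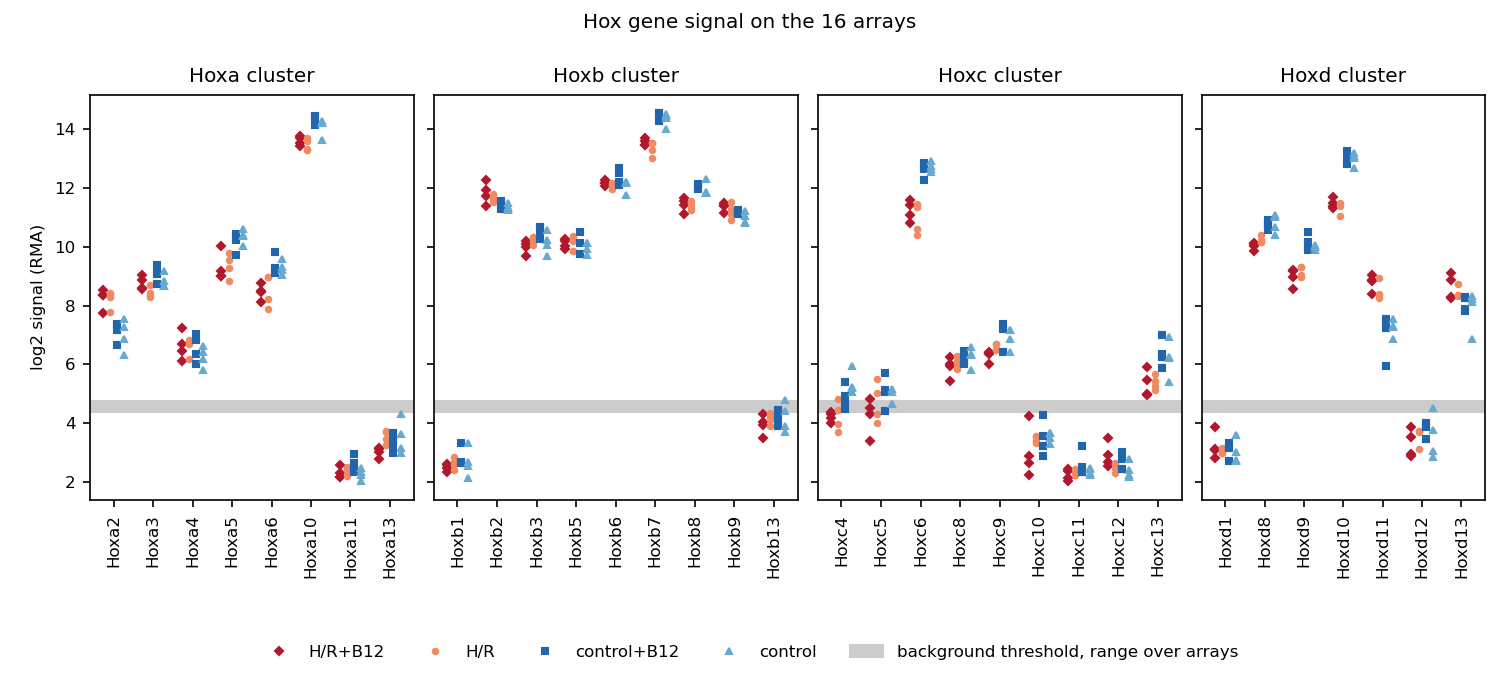
Log2 signal (vertical axis) of the 33 Hox genes in 4 panels by cluster, ordered by paralog group number, with 1 point per array and the groups H/R+B12, H/R, control+B12 and control from left to right within each gene. The grey band is the range over arrays of the background threshold, 4.37 to 4.74. Hoxc10, Hoxc11, Hoxc12 and Hoxd12 lie at or below it between neighbours that lie above it.

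After H/R 9 Hox genes, all from groups 5 to 10, were lower both with and without B12, and 2 genes, Hoxd11 and Hoxa2, were higher. Outside those groups Hoxc4 and Hoxc13 were called lower in 1 comparison only. With B12 in both arms, 13 of 33 Hox genes changed between H/R+B12 and control+B12 (limma, adjusted p under 0.05 over all probe sets), 2 higher and 11 lower, where 18.7% of all tested probe sets were called (9.04% higher and 9.61% lower). Without B12, 12 of 33 changed between H/R and control, again 2 higher, with 10 lower, where 17.6% of all probe sets were called (8.11% higher and 9.54% lower). At an unadjusted p under 0.05 there were 17 and 14 Hox genes, where 29.1% and 27.6% of all probe sets had such a p. Among probe sets above background in at least 1 group, of which the 33 genes hold 24, the called shares were 33.1% with B12 and 31.9% without. The median log2 change over the 33 was -0.35 with B12 and -0.07 without it, beside -0.04 and -0.02 over all probe sets. Cells in H/R also lost glucose and serum, so oxygen, glucose and serum cannot be told apart.

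These comparisons share no arrays, and 11 Hox genes were called in both, all with the same sign. They are 11 of the 13 called with B12 and 11 of the 12 called without it, where 2943 of 4142 and 2943 of 3919 probe sets were called in both. Of the 11, Hoxa2 and Hoxd11 rose and Hoxa5, Hoxa6, Hoxa10, Hoxb7, Hoxb8, Hoxc6, Hoxd8, Hoxd9 and Hoxd10 fell. Hoxc9 and Hoxc13 were called only with B12 and Hoxc4 only without it, and none of these passed for the difference between the comparisons, given further on. The H/R+B12 arrays lay outside the control+B12 range in 13 of 33 genes, 2 higher and 11 lower, where 21.5% of probe sets did so (10.3% higher and 11.2% lower). The H/R arrays lay outside the control range in 12 of 33, 3 higher and 9 lower, where 20.9% did (9.88% higher and 11.0% lower).

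**Figure D2:**
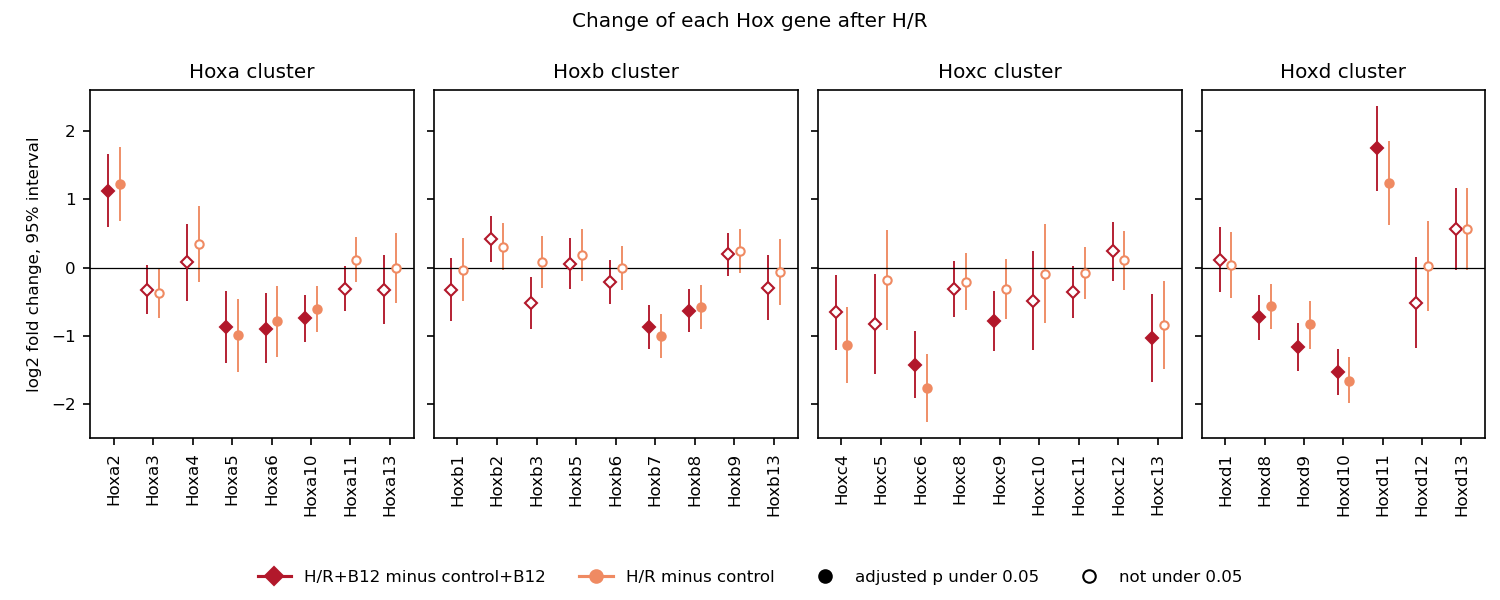
Log2 fold change after H/R (vertical axis, with 95% intervals) for each Hox gene in cluster order, H/R+B12 minus control+B12 (diamonds) left of H/R minus control (circles). Filled symbols have an adjusted p under 0.05, and the Hoxd panel runs from falls at Hoxd8, Hoxd9 and Hoxd10 to a rise at Hoxd11.

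Cluster D held neighbours that moved in opposite directions, Hoxd11 up and Hoxd10 and Hoxd9 down, and for that reason their start regions are shown. Each is 250 bases before to 50 after a transcription start, from RefSeq on GRCm38.p6, plus strand. Capitals mark ACGTG or GCGTG on either strand, the core that hypoxia-inducible factors bind. Overlapping matches count separately, so CACGTG holds 2. Hoxd11 has 2 starts in the table and both are given.
Hoxd11, chr2:74679308-74679607: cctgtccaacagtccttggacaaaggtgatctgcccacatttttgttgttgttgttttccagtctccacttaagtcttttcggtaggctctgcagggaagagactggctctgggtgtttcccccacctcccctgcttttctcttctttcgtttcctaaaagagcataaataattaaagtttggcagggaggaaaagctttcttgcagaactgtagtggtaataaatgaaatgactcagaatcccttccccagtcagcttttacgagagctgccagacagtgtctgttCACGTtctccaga
Hoxd11, chr2:74682073-74682372: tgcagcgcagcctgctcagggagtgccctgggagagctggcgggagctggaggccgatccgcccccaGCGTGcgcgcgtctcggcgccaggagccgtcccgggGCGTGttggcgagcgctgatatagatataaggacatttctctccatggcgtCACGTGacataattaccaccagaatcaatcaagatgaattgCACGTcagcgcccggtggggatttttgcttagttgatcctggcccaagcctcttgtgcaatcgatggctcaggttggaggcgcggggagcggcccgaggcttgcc
Hoxd10, chr2:74691641-74691940: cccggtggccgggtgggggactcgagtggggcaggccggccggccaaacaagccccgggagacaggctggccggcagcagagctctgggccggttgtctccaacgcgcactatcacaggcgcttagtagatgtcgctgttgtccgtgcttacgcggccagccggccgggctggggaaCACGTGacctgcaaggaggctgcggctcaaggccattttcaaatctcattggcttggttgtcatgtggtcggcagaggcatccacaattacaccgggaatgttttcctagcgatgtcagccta
Hoxd9, chr2:74697513-74697812: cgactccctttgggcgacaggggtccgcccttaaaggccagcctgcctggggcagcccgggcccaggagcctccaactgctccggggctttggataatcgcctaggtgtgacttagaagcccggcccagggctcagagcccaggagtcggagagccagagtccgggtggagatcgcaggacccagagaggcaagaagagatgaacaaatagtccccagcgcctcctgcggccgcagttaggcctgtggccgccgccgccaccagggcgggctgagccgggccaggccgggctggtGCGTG

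The Hoxd11 windows hold 1 and 5 matches of the core, the Hoxd10 window 2 and the Hoxd9 window 1. Of 32851 such windows over all genes 43.8% hold at least 1, and 11 of the 19 windows found for 17 Hox genes do. Genes that rose and genes that fell both have it, and a match is a description of the letters only. The palindrome CACGTG, present in 7.15% of all windows, occurs in the Hoxd10 window and in the second Hoxd11 window. CCAAT on either strand occurs in the Hoxd10 window but not in the Hoxd11 or Hoxd9 windows, and in 37.4% of all windows. TGATNNAT, a site for Pbx and Hox proteins together, occurs on either strand in the second Hoxd11 window and in 8.85% of all windows. TATAAA occurs in none of the 4 on either strand, and in 13.6% of all windows.

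Hoxd10, which acts in lumbar and hindlimb patterning, gave 11.51, 11.31, 11.38 and 11.7 in H/R+B12 and 11.4, 11.49, 11.06 and 11.47 in H/R, against 12.84, 13.27, 12.82 and 13.08 in control+B12 and 12.69, 13.04, 13.18 and 13.1 in control. All 8 arrays after H/R lay below all 8 arrays without it. It fell on the log2 scale by 1.53 ± 0.16 (adjusted p = 4.96e-06) with B12 and 1.65 ± 0.16 (adjusted p = 2.3e-06) without it (SE, n = 4 arrays a group in this and the following changes). Hoxd11, the group 11 gene beside it, gave 8.89, 8.4, 9.04 and 8.85 in H/R+B12 and 8.26, 8.95, 8.41 and 8.36 in H/R, against 7.25, 7.53, 5.93 and 7.46 in control+B12 and 7.28, 6.87, 7.55 and 7.32 in control. Here every array after H/R was above every array without it, and 1 control+B12 array, at 5.93, was far under the others. Hoxd11 rose by 1.75 ± 0.29 (adjusted p = 0.000429) with B12 and 1.24 ± 0.29 (adjusted p = 0.00633) without it, and by 1.38 with B12 when that array was left out. The RefSeq gene models of Hoxd10 and Hoxd11 overlap, and which part of each gene the probes read is not given in the sources used.

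Going toward low numbers, Hoxd9 and Hoxd8 fell with Hoxd10. Hoxd9, a gene of the lower spine and limb, gave 9.17, 9.2, 8.98 and 8.57 in H/R+B12 and 8.97, 9.3, 9.3 and 9.04 in H/R, against 10.0, 9.88, 10.16 and 10.51 in control+B12 and 9.89, 10.07, 10.01 and 9.98 in control. Its arrays with and without H/R did not overlap, and it fell by 1.16 ± 0.17 (adjusted p = 0.000111) with B12 and 0.83 ± 0.17 (adjusted p = 0.00186) without it. Hoxd8 gave 9.85, 10.13, 10.02 and 10.11 in H/R+B12 and 10.23, 10.17, 10.4 and 10.16 in H/R, against 10.74, 10.91, 10.59 and 10.76 in control+B12 and 11.09, 10.41, 11.03 and 10.68 in control. The arrays with and without H/R again stayed apart, though H/R replicate 3, at 10.4, came close to control replicate 2, at 10.41. Hoxd8 fell by 0.72 ± 0.15 (adjusted p = 0.0029) with B12 and 0.56 ± 0.15 (adjusted p = 0.0162) without it. The call without B12 was lost when control replicate 1 (adjusted p = 0.0557) or control replicate 3 (0.0577) was left out.

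At the far end of the cluster Hoxd13, a gene of the digits and the genital tract, gave 9.1, 8.29, 8.88 and 8.27 in H/R+B12 and 8.33, 8.36, 8.74 and 8.35 in H/R, against 7.83, 8.25, 7.89 and 8.29 in control+B12 and 8.33, 8.13, 8.24 and 6.85 in control. The groups overlapped in both comparisons, and control replicate 4 was the lowest array by a wide margin. Its log2 change was 0.57 ± 0.28 (adjusted p = 0.196) with B12 and 0.56 ± 0.28 (adjusted p = 0.22) without it, the second of which was 0.21 when control replicate 4 was left out. Hoxd12 and Hoxd1 were at background in all 4 groups.

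In cluster C the largest change belonged to Hoxc6, a gene of the thoracic region. Hoxc6 gave 11.41, 11.59, 11.08 and 10.81 in H/R+B12 and 11.35, 11.47, 10.62 and 10.42 in H/R, against 12.65, 12.76, 12.29 and 12.87 in control+B12 and 12.76, 12.94, 12.66 and 12.54 in control. The arrays after H/R were spread widely but stayed below all arrays without it. It fell by 1.42 ± 0.23 (adjusted p = 0.000399) with B12 and 1.76 ± 0.23 (adjusted p = 5.48e-05) without it, a fold change of 0.375 with B12 and 0.295 without it. Among all Hox genes Hoxc6 had the largest fall without B12, and Hoxd10 had the largest with B12.

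Among the other cluster C genes above background, Hoxc4, a gene of the neck region, gave 4.17, 4.39, 4.0 and 4.31 in H/R+B12 and 4.84, 3.96, 4.45 and 3.69 in H/R, against 4.48, 4.67, 4.91 and 5.41 in control+B12 and 5.96, 5.2, 5.24 and 5.06 in control. The groups stayed apart in both comparisons, but in control alone was it above background on all 4 arrays, so the size of its change is uncertain. Its log2 change was -0.65 ± 0.26 (adjusted p = 0.0972) with B12, which did not pass, and it fell by 1.13 ± 0.26 (adjusted p = 0.00512) without B12. Hoxc9, known for thoracic identity, gave 6.43, 6.01, 6.35 and 6.4 in H/R+B12 and 6.53, 6.71, 6.48 and 6.7 in H/R, against 7.37, 7.2, 7.32 and 6.42 in control+B12 and 6.88, 6.44, 7.17 and 7.18 in control. Control+B12 replicate 4, at 6.42, lay among the H/R+B12 values. With B12 Hoxc9 fell by 0.78 ± 0.21 (adjusted p = 0.0143), a call lost at an adjusted p of 0.0505 without H/R+B12 replicate 2, and without B12 its change was -0.31 ± 0.21 (adjusted p = 0.393).

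Hoxc13 gave 4.95, 5.92, 5.46 and 5.01 in H/R+B12 and 5.12, 5.25, 5.43 and 5.68 in H/R, against 5.88, 6.36, 6.99 and 6.24 in control+B12 and 5.4, 6.25, 6.22 and 6.95 in control. Its arrays overlapped between the groups in both comparisons. It was above background in all 4 groups, but with the median of the negative control features as the threshold it was not. The size of its change is therefore uncertain. With B12 Hoxc13 fell by 1.03 ± 0.30 (adjusted p = 0.0239), a call lost without H/R+B12 replicate 1 (0.0751), H/R+B12 replicate 4 (0.0716) or control+B12 replicate 3 (0.0835). Without B12 its change was -0.84 ± 0.30 (adjusted p = 0.0697), and it passed at -1.11 when control replicate 1 was left out (adjusted p = 0.0139).

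Hoxc5, near the background threshold, gave 4.3, 4.52, 4.81 and 3.39 in H/R+B12, 4.3, 5.51, 5.02 and 4.01 in H/R, 5.12, 4.42, 5.06 and 5.7 in control+B12 and 4.67, 5.06, 5.15 and 4.67 in control. Its groups overlapped, and its change was -0.82 ± 0.34 (adjusted p = 0.119) with B12 and -0.18 ± 0.34 (adjusted p = 0.816) without it. Hoxc8, which patterns the thoracic spine, gave 5.95, 6.25, 5.45 and 6.02 in H/R+B12, 6.29, 6.1, 6.0 and 5.83 in H/R, 6.37, 6.45, 6.01 and 6.08 in control+B12 and 6.31, 6.35, 6.59 and 5.8 in control. Its groups overlapped as well, at -0.31 ± 0.20 (adjusted p = 0.328) with B12 and -0.21 ± 0.20 (adjusted p = 0.571) without it. The silent Hoxc10 passed with B12 only when H/R+B12 replicate 2 was left out (-0.90, adjusted p = 0.0266), at a level below background.

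Cluster B had 2 falls side by side in a run of genes that otherwise did not pass. Hoxb7, whose promoter is widely used to mark the ureteric bud, gave 13.46, 13.47, 13.7 and 13.62 in H/R+B12 and 13.53, 13.55, 13.3 and 13.03 in H/R, against 14.34, 14.29, 14.56 and 14.54 in control+B12 and 14.02, 14.47, 14.53 and 14.38 in control. Its 8 arrays after H/R all lay below the 8 without it. It fell by 0.87 ± 0.15 (adjusted p = 0.000639) with B12 and 1.00 ± 0.15 (adjusted p = 0.000197) without it. Hoxb8, the next gene, gave 11.68, 11.42, 11.55 and 11.12 in H/R+B12 and 11.45, 11.31, 11.26 and 11.56 in H/R, against 12.14, 12.07, 11.98 and 12.07 in control+B12 and 11.85, 11.88, 12.32 and 11.82 in control. These arrays did not overlap either, and Hoxb8 fell by 0.63 ± 0.15 (adjusted p = 0.00678) with B12 and 0.57 ± 0.15 (adjusted p = 0.0127) without it.

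The genes on both sides of this pair did not pass. Hoxb9, which patterns the thoracic skeleton, gave 11.48, 11.43, 11.16 and 11.39 in H/R+B12, 11.13, 10.93, 11.54 and 11.3 in H/R, 11.18, 11.27, 11.11 and 11.11 in control+B12 and 11.04, 11.22, 10.82 and 10.84 in control. Its groups overlapped, with changes of 0.20 ± 0.15 (adjusted p = 0.425) with B12 and 0.24 ± 0.15 (adjusted p = 0.334) without it. Hoxb6 gave 12.16, 12.19, 12.08 and 12.26 in H/R+B12, 12.18, 11.98, 12.12 and 12.09 in H/R, 12.7, 12.5, 12.11 and 12.21 in control+B12 and 12.21, 12.19, 11.75 and 12.22 in control. These overlapped too, with a change of -0.21 ± 0.15 (adjusted p = 0.404) with B12. Without B12 the change of Hoxb6 was 0.00 with a 95% interval from -0.32 to 0.32, where the interval of Hoxb7 ran from -1.32 to -0.68.

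Hoxb5 gave 10.27, 10.04, 9.93 and 10.2 in H/R+B12, 9.86, 10.36, 10.22 and 10.2 in H/R, 10.51, 9.77, 9.76 and 10.14 in control+B12 and 10.12, 10.14, 9.94 and 9.73 in control. Its groups overlapped, and the 95% intervals of its change were -0.31 to 0.44 with B12 and -0.20 to 0.56 without it. Hoxb3 gave 10.11, 10.21, 9.7 and 9.99 in H/R+B12, 10.34, 10.21, 10.3 and 10.05 in H/R, 10.28, 10.4, 10.69 and 10.67 in control+B12 and 9.7, 10.24, 10.06 and 10.58 in control. The H/R+B12 arrays lay below the control+B12 arrays while the H/R and control arrays overlapped. The changes of Hoxb3 were -0.51 ± 0.18 (adjusted p = 0.0622) with B12 and 0.08 ± 0.18 (adjusted p = 0.838) without it. The first of these passed without control replicate 1 (0.0377) or control replicate 4 (0.0395), arrays that enter it only through the shared spread. Its RefSeq model overlaps that of Hoxb4.

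Hoxb2, a gene of the hindbrain and facial nerve, gave 11.39, 11.72, 12.27 and 11.92 in H/R+B12, 11.53, 11.79, 11.67 and 11.65 in H/R, 11.3, 11.56, 11.31 and 11.46 in control+B12 and 11.31, 11.27, 11.36 and 11.48 in control. All H/R arrays of Hoxb2 were above all control arrays, while the groups with B12 overlapped. Its changes, 0.42 ± 0.16 (adjusted p = 0.0877) with B12 and 0.31 ± 0.16 (adjusted p = 0.239) without it, did not pass. Without H/R+B12 replicate 1 the first was 0.56 with an adjusted p of 0.0175. Hoxb1 and Hoxb13 stayed at background. The H/R+B12 arrays of Hoxb1 were all below those of control+B12.

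In cluster A the measured gene nearest the head end rose and 3 further along fell. Hoxa2, which patterns the second branchial arch, gave 7.76, 8.36, 8.54 and 8.36 in H/R+B12 and 8.44, 7.8, 8.29 and 8.39 in H/R, against 7.16, 6.66, 7.32 and 7.39 in control+B12 and 7.26, 7.55, 6.88 and 6.33 in control. Every array after H/R was above every array without it. It rose by 1.12 ± 0.25 (adjusted p = 0.00443) with B12 and 1.22 ± 0.25 (adjusted p = 0.00248) without it, a fold change of 2.18 with B12 and 2.33 without it. Hoxa10, which acts in the lumbar region and the uterus, gave 13.71, 13.76, 13.55 and 13.43 in H/R+B12 and 13.29, 13.69, 13.6 and 13.33 in H/R, against 14.46, 14.39, 14.16 and 14.42 in control+B12 and 13.63, 14.21, 14.29 and 14.2 in control. With B12 the groups stayed apart, while control replicate 1 lay within the H/R range. Hoxa10 fell by 0.74 ± 0.16 (adjusted p = 0.00343) with B12 and 0.60 ± 0.16 (adjusted p = 0.0144) without it, the second of which was lost without control replicate 3 (0.0505).

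Hoxa5, needed for lung and respiratory tract formation, gave 10.04, 9.0, 9.17 and 9.02 in H/R+B12 and 9.29, 9.79, 8.83 and 9.56 in H/R, against 10.31, 10.23, 9.74 and 10.44 in control+B12 and 10.03, 10.6, 10.42 and 10.36 in control. H/R+B12 replicate 1 lay within the control+B12 range, while the H/R and control arrays did not overlap. It fell by 0.87 ± 0.25 (adjusted p = 0.0206) with B12 and 0.99 ± 0.25 (adjusted p = 0.00971) without it. The call with B12 was lost without H/R+B12 replicate 2 (0.0665), 3 (0.0549) or 4 (0.0639), or control+B12 replicate 1 (0.0527) or 4 (0.062).

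Hoxa6 gave 8.76, 8.13, 8.51 and 8.48 in H/R+B12 and 8.96, 8.22, 8.99 and 7.87 in H/R, against 9.21, 9.84, 9.1 and 9.28 in control+B12 and 9.03, 9.23, 9.58 and 9.32 in control. Its arrays with and without H/R stayed apart, though H/R replicate 3, at 8.99, came close to control replicate 1, at 9.03. It fell by 0.89 ± 0.24 (adjusted p = 0.0161) with B12 and 0.78 ± 0.24 (adjusted p = 0.0341) without it. The call with B12 was lost without H/R+B12 replicate 2 (0.0559) or control+B12 replicate 2 (0.0585), and the call without B12 was lost without H/R replicate 2 (0.101) or 4 (0.12) or control replicate 2 (0.0593), 3 (0.101) or 4 (0.0687).

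Between the risen Hoxa2 and these genes, Hoxa3, a gene of the thymus and parathyroid, gave 9.03, 8.61, 8.86 and 8.58 in H/R+B12, 8.69, 8.44, 8.38 and 8.31 in H/R, 9.15, 8.74, 9.38 and 9.09 in control+B12 and 8.66, 9.17, 8.66 and 8.83 in control. Its groups overlapped, with changes of -0.32 ± 0.17 (adjusted p = 0.23) with B12 and -0.37 ± 0.17 (adjusted p = 0.161) without it. Hoxa4 gave 6.46, 7.25, 6.11 and 6.7 in H/R+B12, 6.17, 6.84, 6.69 and 6.72 in H/R, 6.0, 6.36, 7.02 and 6.82 in control+B12 and 6.63, 6.17, 5.8 and 6.42 in control. These overlapped as well, at 0.08 ± 0.27 (adjusted p = 0.892) with B12 and 0.35 ± 0.27 (adjusted p = 0.455) without it. The RefSeq model of Hoxa3 spans Hoxa4, Hoxa5 and Hoxa6, so which of these genes each probe set reads cannot be told apart here.

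**Figure D3:**
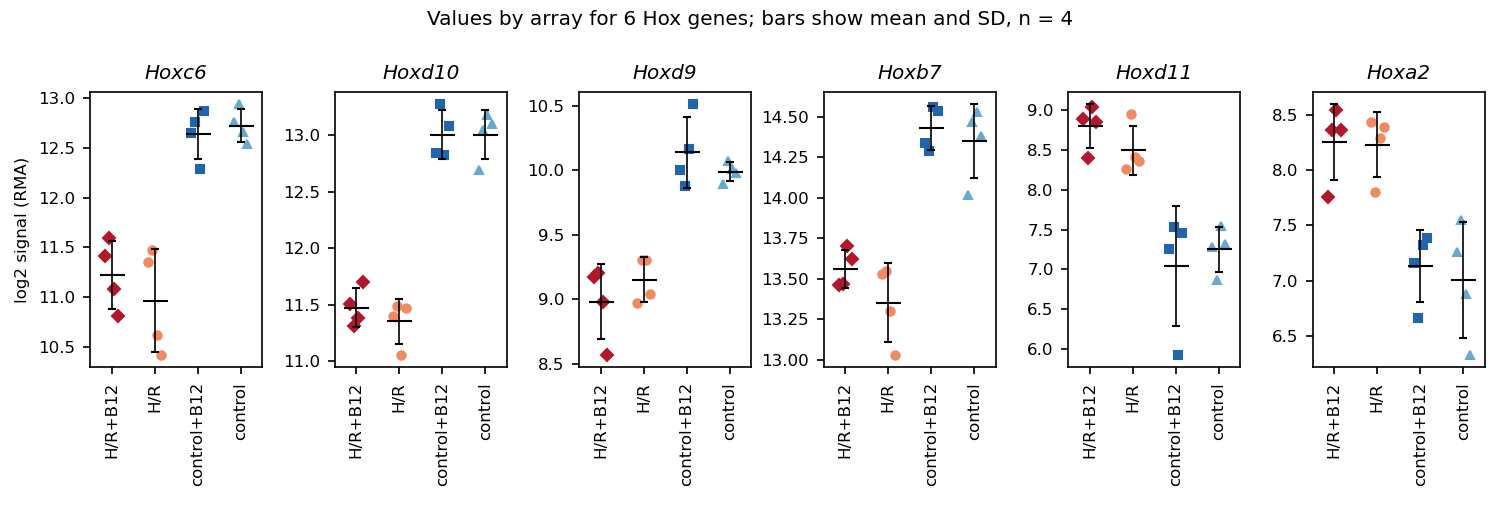
Log2 signal (vertical axes, each with its own range that does not start at 0) of 6 Hox genes on every array, with groups H/R+B12, H/R, control+B12 and control from left to right and bars for the mean and SD of 4 arrays. In Hoxc6, Hoxd10, Hoxd9 and Hoxb7 the 8 arrays after H/R lie below the other 8, and in Hoxd11 and Hoxa2 they lie above.

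Genes of the same paralog group did not all give the same call. Both group 10 genes above background, Hoxa10 and Hoxd10, fell. In group 8 Hoxb8 and Hoxd8 fell and Hoxc8 did not pass, and in group 6 Hoxa6 and Hoxc6 fell while Hoxb6 did not pass. In group 2 Hoxa2 rose and Hoxb2 did not pass. Of the 12 genes of groups 4 to 8, 6 fell with B12 and 7 without it, and none of these 12 rose. All 12 were above background in at least 1 group, and 10 were in all 4 groups. Hoxc4, counted among the 7, passed the background threshold only in control, the group where it was highest. Of probe sets above background in at least 1 group, 16.8% (with B12) and 17.3% (without it) were called lower and 16.2% and 14.6% higher. Of the 15 genes of groups 9 to 13, 1 rose in each comparison, and 5 fell with B12 and 3 without it, where 9.61% and 9.54% of all probe sets were called lower and 9.04% and 8.11% higher. Whether genes within a group differed from each other in their change was not tested.

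No change of a Hox gene with vitamin B12 was detected. These comparisons use the same arrays as those of H/R. By limma 0 of 33 passed in H/R+B12 against H/R and 0 of 33 in control+B12 against control, where 0.0% of all tested probe sets were called in either. At an unadjusted p under 0.05 there was 1 Hox gene in each, Hoxa13 at -0.51 ± 0.24 and Hoxa11 at 0.34 ± 0.16, both at background, where 4.55% and 5.76% of all probe sets had such a p. Estimates for the 33 genes ran from -0.51 to 0.41 in H/R cells and from -0.50 to 0.37 in control cells. The 95% intervals lay within 1 log2 unit of 0 for 30 and 32 of the 33 genes, which does not show that B12 had no smaller effect.

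For the 11 genes called after H/R in both comparisons, the intervals of the B12 change reached from -0.59 to 0.92 in H/R cells and from -0.83 to 0.66 in control cells. The H/R+B12 arrays did not overlap the H/R arrays in 3 of 33 genes (Hoxa13, Hoxc9 and Hoxd8), all lower, where 2.87% of probe sets did not overlap and 1.49% were lower. The control+B12 and control arrays overlapped in all 33 Hox genes, where 2.87% of probe sets did not.

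The interaction, the H/R change with B12 minus the H/R change without, was called by limma in 0 of 33 Hox genes and in 0.0% of all probe sets. At an unadjusted p under 0.05 it held 1 Hox gene, Hoxb3, at -0.59 ± 0.25 (limma adjusted p = 0.987), where 4.82% of all probe sets had such a p. The genes called after H/R in 1 comparison only had interactions of -0.47 ± 0.30 for Hoxc9, -0.19 ± 0.43 for Hoxc13 and 0.48 ± 0.37 for Hoxc4, so a difference of their response with B12 was not shown. With each array left out these ran from -0.69 to -0.31 for Hoxc9, from -0.44 to 0.07 for Hoxc13 and from 0.28 to 0.68 for Hoxc4. Among the 11 genes called in both, the estimates ran from -0.33 for Hoxd9 to 0.51 for Hoxd11. The upper end rests on 1 array: without control+B12 replicate 3, at 5.93, the interaction of Hoxd11 was 0.14 ± 0.28 and the highest of the 11 was Hoxc6 at 0.23. The intervals of the 11 reached from -0.86 to 1.39, with 9 of the 11 within 1 log2 unit of 0, and without that array from -0.96 to 0.95, with all 11 within it. For Hoxd10 the interaction was 0.12 with an interval from -0.35 to 0.59.

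**Figure D4:**
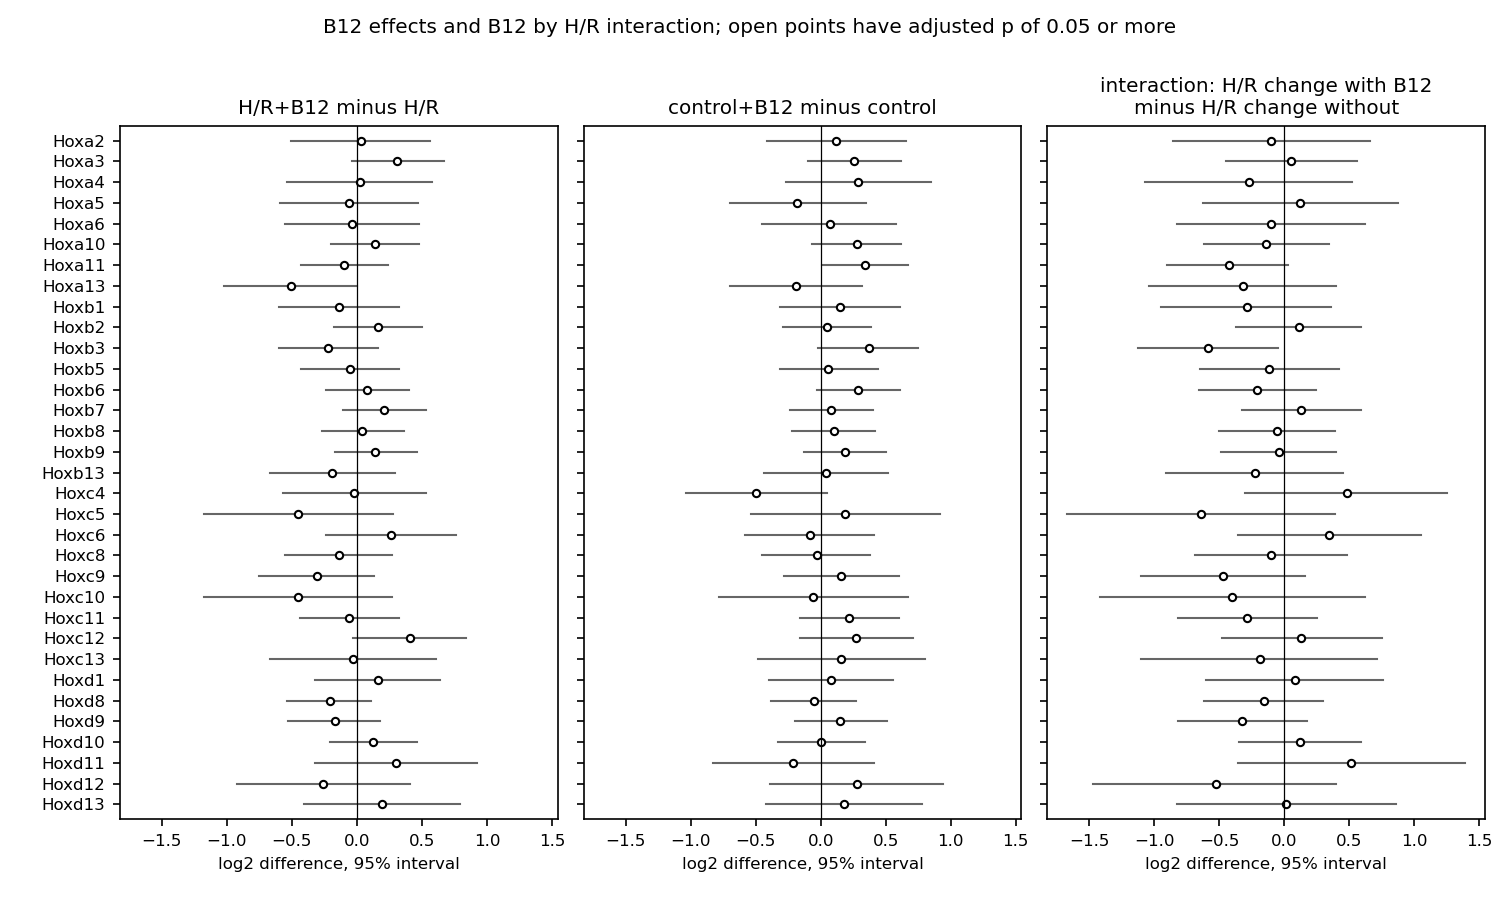
Log2 differences (horizontal axes) with 95% intervals for the 33 Hox genes in 3 panels, H/R+B12 minus H/R, control+B12 minus control, and the interaction. All points are open because none has an adjusted p under 0.05, and the intervals of the interaction are the widest.

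Of 8 measured partners of Hox proteins 6 were above background, and 1 rose and 2 fell in each H/R comparison. That is 37.5% of the list, beside 18.7% (with B12) and 17.6% (without it) of all probe sets called, and 33.1% and 31.9% of those above background. Meis1 fell by 1.33 ± 0.21 (adjusted p = 0.000226) with B12 and 1.08 ± 0.21 (adjusted p = 0.00133) without it, and Pbx3 fell by 0.70 ± 0.13 (adjusted p = 0.00124) with B12 and 0.72 ± 0.13 (adjusted p = 0.00102) without it. Pknox1, a MEIS-class partner, rose by 1.12 ± 0.23 (adjusted p = 0.00205) with B12 and 1.39 ± 0.23 (adjusted p = 0.000367) without it. The cofactor list had median log2 changes of -0.28 with B12 and -0.35 without it, beside -0.04 and -0.02 for all probe sets.

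Of 27 measured Polycomb genes 5 rose and 0 fell in each comparison (limma, with 13 and 8 at an unadjusted p under 0.05). The called share, 18.5% in each, is about that of all probe sets, 18.7% with B12 and 17.6% without it, and is below that of probe sets above background, to which 26 of the 27 belong (33.1% and 31.9%). The median changes were 0.21 with B12 and 0.10 without it. Pcgf5 rose by 1.50 ± 0.19 with B12 and 1.33 ± 0.19 without it, Rybp by 1.05 ± 0.21 with B12 and 0.94 ± 0.21 without it and Phc2 by 0.67 ± 0.16 with B12 and 0.76 ± 0.16 without it, all parts of Polycomb complexes that mark H2A. Ezh1, an H3K27 methyltransferase, rose without B12 and did not pass with it (0.34 ± 0.13 (adjusted p = 0.0719) with B12 and 0.64 ± 0.13 (adjusted p = 0.00181) without it). Its complex partner Suz12 rose with B12 and did not pass without it (0.44 ± 0.13 (adjusted p = 0.0223) with B12 and 0.15 ± 0.13 (adjusted p = 0.519) without it).

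Of 14 MLL and trithorax genes 3 rose and 3 fell with B12, and 1 rose and 1 fell without it, with medians of 0.01 and 0.02. All 14 were above background, and the called shares were 42.9% with B12 and 14.3% without it, where 33.1% and 31.9% of probe sets above background were called. Kdm6b, which removes the Polycomb mark from H3K27, rose by 1.43 ± 0.16 (adjusted p = 1.24e-05) with B12 and 1.13 ± 0.16 (adjusted p = 0.000107) without it. Dpy30, a subunit of MLL complexes, fell by 0.74 ± 0.16 (adjusted p = 0.0031) with B12 and 0.75 ± 0.16 (adjusted p = 0.00305) without it. Kmt2c fell with B12 and did not pass without it (-0.62 ± 0.16 (adjusted p = 0.0104) with B12 and -0.32 ± 0.16 (adjusted p = 0.204) without it), and Dot1l, an H3K79 methyltransferase, rose with B12 and did not pass without it (0.99 ± 0.26 (adjusted p = 0.0122) with B12 and 0.26 ± 0.26 (adjusted p = 0.608) without it).

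Retinoic acid turns on Hox genes in the embryo, and of 17 measured genes of its pathway 5 rose and 1 fell with B12, and 5 rose and 2 fell without it, with medians of 0.15 and 0.22. The called shares were 35.3% with B12 and 41.2% without it, where 18.7% and 17.6% of all probe sets and 33.1% and 31.9% of those above background were called, and 9 of the 17 were above background. The receptor Rara rose by 1.46 ± 0.15 (adjusted p = 3.82e-06) with B12 and 1.71 ± 0.15 (adjusted p = 8.48e-07) without it and Rarb by 1.33 ± 0.23 (adjusted p = 0.000539) with B12 and 1.34 ± 0.23 (adjusted p = 0.0005) without it. Rdh10, an enzyme of retinoic acid synthesis, rose by 0.72 ± 0.12 with B12 and 0.83 ± 0.12 without it, and the partner receptor Rxra fell by 1.17 ± 0.18 with B12 and 1.08 ± 0.18 without it.

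Of 16 kidney development factors 0 rose and 2 fell with B12, and 1 rose and 3 fell without it (limma, with 5 at an unadjusted p under 0.05 in each), with a median of 0.04 in both. The called shares, 12.5% with B12 and 25% without it, lie on either side of the 18.7% and 17.6% of all probe sets. Emx2 fell by 1.02 ± 0.15 (adjusted p = 0.000165) with B12 and 0.89 ± 0.15 (adjusted p = 0.000561) without it and Pax2 by 0.81 ± 0.14 (adjusted p = 0.000503) with B12 and 0.66 ± 0.14 (adjusted p = 0.00267) without it, both needed for the early kidney. Sall1 fell without B12 and did not pass with it (-0.44 ± 0.15 (adjusted p = 0.0523) with B12 and -0.67 ± 0.15 (adjusted p = 0.00455) without it), and Osr1 rose without B12 and did not pass with it (0.49 ± 0.21 (adjusted p = 0.128) with B12 and 0.72 ± 0.21 (adjusted p = 0.0236) without it).

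Of 13 relatives of the Hox genes, such as the Cdx and Evx genes, 0 were above background and limma called 0 in either comparison (0 with an unadjusted p under 0.05). The smallest p-values in that list belonged to Mnx1 and Cdx2 with B12 and to Gsx1 and Gsx2 without it. The 2 noncoding RNAs of the clusters that were measured did not pass, Hoxd3os1 at 0.05 ± 0.44 with B12 and 0.99 ± 0.44 without it and Hoxa11os at 0.11 ± 0.18 with B12 and -0.07 ± 0.18 without it.

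Of 14 genes listed as lying beside the clusters 1 rose and 3 fell in each comparison, with medians of -0.15 with B12 and -0.06 without it. The called share was 28.6% in each, and 11 of the 14 were above background, where 33.1% and 31.9% of probe sets were called. Atp5g3, an ATP synthase subunit, fell by 0.83 ± 0.11 with B12 and 0.81 ± 0.11 without it, Cbx5, a heterochromatin protein, by 0.52 ± 0.11 with B12 and 0.59 ± 0.11 without it and Skap2 by 0.41 ± 0.13 with B12 and 0.46 ± 0.13 without it. Tax1bp1 rose by 0.46 ± 0.14 with B12 and 0.44 ± 0.14 without it. In the B12 and interaction comparisons no gene of the lists named here was called by limma.

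Some markers of cell types also moved with H/R. Summed over 8 fibroblast markers the linear signal was 463 to 574 in H/R+B12, 532 to 622 in H/R, 669 to 921 in control+B12 and 748 to 1025 in control. Most of that sum, 68.0% to 87.6% over the arrays, is the probe set of Foxd1. Foxd1 was the 1 marker of the 8 that was called, and fell by 0.77 ± 0.17 with B12 and 0.87 ± 0.17 without it. The other 7 summed to 107 to 125 in H/R+B12, 118 to 175 in H/R, 99 to 151 in control+B12 and 125 to 163 in control, overlapping within each H/R comparison. Over 10 proximal tubule markers the sum was 69180 to 73554 in H/R+B12, 69518 to 74418 in H/R, 100225 to 112207 in control+B12 and 87213 to 111346 in control. Of this sum 75.1% to 82.1% is the probe set of Mme. There Slc4a4 rose and Aqp1 and Mme fell in each comparison. Epithelium markers summed to 98832 to 109220 in H/R+B12, 103149 to 113089 in H/R, 86251 to 108080 in control+B12 and 92763 to 103498 in control, with 58.6% to 68.1% from Pax8, and 3 of 8 rose (Krt18, Krt19 and Tjp1). In each comparison the called shares were 12.5% of the fibroblast, 30% of the proximal tubule and 37.5% of the epithelium markers. Beside these, 18.7% (with B12) and 17.6% (without it) of all probe sets were called. Among probe sets above background it was 33.1% and 31.9%. The part of these marker differences in the Hox results was not tested. No distal nephron or leukocyte marker was above the threshold on all 4 arrays of a group. Of these 13, Aqp3 exceeded it on 11 of 16 arrays, Foxi1 and Ptprc on 1 each and the other 10 on none. At these levels Ptprc was called higher after H/R with B12 and C1qb lower after H/R without B12, in each 25% of the 4 leukocyte markers. Of endothelial and podocyte markers 2 of 5 and 3 of 4 were above background. Flt1 rose after H/R without B12, which is 20% of the 5 endothelial markers.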

How the data were processed

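The submitters' processing notes name RMA, Affymetrix Expression Console and Transcriptome Analysis Console; versions and genome build were given by no source used here. The deposited values are log2 signals per probe set and were used as they are. The 6640 control features were left out and 22206 probe sets were tested. All 16 arrays were fitted in limma 3.58.1 (R 4.3.3) with 1 mean per group and empirical Bayes variances; p-values are two-sided and Benjamini-Hochberg adjusted over all probe sets, separately in each of 5 comparisons. Errors of changes are standard errors of that fit, and intervals are 95%. The fit was tested on simulated data. Gene names come from the platform annotation. Hox genes past the threshold or above background are given by array; of each other list up to 4 genes with the smallest p-values are named. The members, lists and alternatives were chosen with earlier results of these data known. Alternatives changed the model, the normalization, the probe sets kept and the background threshold, or left out each array. Plots used matplotlib 3.10.9 in Python 3.11.15.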

Additional observations from a re-analysis of the deposited data

Results flagged for a closer look

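Dixon's test was applied to the 4 arrays of each group for the 24 Hox genes above background, 96 sets in all, and 6 sets had 1 array far from the rest. Chance gives about 5%, so this number is near what chance gives. Hoxd13 was marked in 2 groups, in H/R by replicate 3 at 8.74 (the others 8.33 to 8.36) and in control by replicate 4 at 6.85 (the others 8.13 to 8.33). Without that control array the Hoxd13 change in H/R against control was 0.21 ± 0.21 in place of 0.56, and it did not pass with or without it. Hoxa5 in H/R+B12 had replicate 1 at 10.04 over 9.0 to 9.17, and without it the change against control+B12 was -1.12 ± 0.22 (adjusted p = 0.00267). Hoxa10 in control had replicate 1 at 13.63 under 14.2 to 14.29, and without it the change in H/R was -0.75 ± 0.15 (adjusted p = 0.00201). Hoxb6 in control had replicate 3 at 11.75 under 12.19 to 12.22, and its change in H/R was -0.12 ± 0.15 without it. Hoxb8 in control had the same array, replicate 3, at 12.32 over 11.82 to 11.88, and without it the change was -0.45 ± 0.15 (adjusted p = 0.0494).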

How the results depend on the processing

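Of the 25 calls of a Hox gene after H/R, 18 were kept under each alternative that was run, and 7 were lost in at least 1, with no change of sign among the 25. For H/R+B12 against control+B12 the count of Hox genes called was 13, with 13 to 15 under the alternatives other than leaving out an array and 11 to 14 with an array left out. For H/R against control it was 12, with 9 to 13 under those alternatives, lowest when only the 2 groups were fitted and highest with array weights, and 9 to 12 with an array left out. With the replicate number as a block the counts were 13 and 12; the labels do not say that the numbers pair the samples, and the deviations of 24 same-numbered pairs from their group means correlated at -0.072 to 0.079, with 6 of 16 samples correlating best with their own number. Under the block Hoxa6 lost its call without B12 (adjusted p = 0.0502) and Hoxc13 gained one (0.0382). Hoxa6 also lost its call when only the 2 groups were fitted (0.071), after quantile normalization (0.0533) and in arrays centred on their medians (0.053), as did Hoxa10 (0.0545) and Hoxd8 (0.0601) when only the 2 groups were fitted. Hoxc13 without B12 passed with array weights (0.0496). With B12, Hoxb2 passed with an intensity trend and robust variances (0.0359) and with centred arrays (0.0377), and Hoxb3 with the trend (0.033) and without the dimmest 25% of probe sets (0.0432). The counts for both B12 comparisons and the interaction were 0 under every alternative run, leave-one-out included (0 to 0), with the replicate block at 0 as well. The interaction has no fit of 2 groups only. The balance of calls over all probe sets depended on the normalization. In arrays centred on their medians 60.1% of called probe sets were higher with B12 and 56.4% without it, in place of 48.5% and 46.0%. The Hox genes called were then 3 higher and 11 lower with B12, and 2 higher and 9 lower without it.

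The number of Hox genes above background, 24, was 21 with the median of the negative control features as the threshold, 22 with the 99th percentile of the chemosensory receptors, 24 with 3 of 4 arrays required, 24 after quantile normalization and 24 to 24 with an array left out. It was 9 with the 95th percentile of the negative control features; these are not probe sets of genes, and the cause was not tested. No Hox gene had several probe sets, so the choice of probe set was not varied. Signals of Hoxc4 and Hoxc5 near background limit what their changes can show, and levels cannot be compared between genes. Hoxc13, which did not pass with the median of the negative control features as the threshold, has a like limit.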
